A study of Nematostella vectensis with 17 samples.

Results

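Weak isolated Brachyury sites were defined in whole gastrulae of the sea anemone Nematostella vectensis as binding peaks that both antibodies of the study detected, that stood alone and that carried little signal. A peak of the AB1 list was taken where it overlapped an AB2 peak by at least 1 bp, where no other such AB1 summit lay within 1000 bp on the scaffold, and where the AB1 ChIP signal exceeded the control signal by less than 4 units. These criteria were met by 5184 of the 14257 AB1 peaks (36.4%). They made up 48.9% of the 10607 AB1 peaks shared with AB2, and 82.7% of the 6267 shared peaks that were isolated. The other 1083 isolated peaks, with a difference of 4 or more, are called stronger isolated sites here, and the 4340 shared peaks with another shared summit within 1000 bp are called closely spaced.

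AB1 and AB2 are rabbit antibodies, raised against His-tagged full-length Nematostella Brachyury made in E. coli. The sources used here do not say whether AB1 and AB2 are sera of different animals. Each antibody was used for 1 ChIP-seq sample, and 1 input sample of sheared chromatin was listed beside them. All 3 came from unselected embryos raised at 21 °C, fixed for 12 min in 2% formaldehyde and sonicated to fragments of about 100 to 200 bp. The embryos are given no genotype, injection or other treatment in the ChIP labels. The RNA-seq libraries of the series, from embryos injected with brachyury or control morpholinos, were not used, because their table carries no gene positions.

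Brachyury is a T-box transcription factor that binds DNA in a sequence-specific manner and regulates nearby genes. In vertebrates it is known for its role in the forming mesoderm and notochord, and in Nematostella, which has no separate mesoderm, its gene is expressed around the blastopore of the gastrula. In a ChIP-seq experiment the summit marks where recovered fragments pile up most, and the height over input reflects how often a site was recovered from the mixed cells of the embryo. In whole embryos, binding in few cells and rare binding in many cells cannot be told apart. No genome sequence or gene annotation of the nemVec1 build was used here, so the sites are named by scaffold and position, and neither their genes nor their T-box motifs are given.

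The sites were chosen by their AB1 ChIP and control signals and by the presence of an AB2 peak, and the AB1 signal covered a narrow range just above the lowest value in the list. ChIP minus control ran from 1.00 to 3.99 units with a median of 1.85, and 2904 sites (56.0%) lay under 2 units. The stronger isolated sites had a median of 5.48 and a highest value of 49.5 units. The AB1 ChIP signal itself had a median of 2.54 units at the weak sites and 6.26 at the stronger ones. The control signal was near-equal, with medians of 0.64 and 0.67 units. AB1 fold enrichment, the authors' ratio of ChIP to control, had a median of 3.95 at the weak and 10.0 at the stronger sites. These are descriptions of what the rule selected and were not tested. No peak of either list had a fold under 2.00 or a score under 1.00, so sites below those values cannot appear among the members.

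For the few sites named right at the limit, the AB2 values did not follow the division into weak and stronger sites. The 3 weak sites nearest under 4 units all had an AB1 difference of 3.99. They lay on scaffold 28 (483229 to 483472), scaffold 207 (4852 to 5095) and scaffold 402 (39041 to 39284), and their AB2 differences were 6.95, 5.20 and 4.48 units. Of the 4 stronger sites at 4.00 units, the 3 on the lowest scaffold numbers lay on scaffold 28 (73692 to 73935), scaffold 49 (247821 to 248064) and scaffold 53 (304566 to 304809). Their AB2 differences were 2.02, 2.57 and 5.04 units. Among these few sites, all 3 weak ones exceeded 4 units with AB2, and 1 of the 3 stronger ones did. Over the whole bands on either side the order was the reverse, with an AB2 difference of 4 units or more at 30.1% of the weak sites of 3.5 to 4 units and 48.7% of the stronger sites of 4 to 5 units, against 20.1% of all shared peaks.

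The AB2 list offers a second measure of the same sites, since the strength rule did not use it. The AB2 difference was below 4 units at nearly all weak sites, but it was also below 4 at 85.9% of the 16005 AB2 peaks. By the authors' score, the AB2 median was 1.83 at the weak sites and 1.76 over the whole AB2 list. The overlapping AB2 peak with the nearest summit, called the partner, had an AB2 difference below 4 units at 4942 of the 5184 weak sites (95.3%, exact binomial 95% interval 94.7 to 95.9). The same held for 303 of the 1083 stronger isolated sites (28.0%, interval 25.3 to 30.8), and for 79.9% of all shared AB1 peaks. The median AB2 difference was 1.83 units at the weak sites (quartiles 1.40 and 2.47) and 5.17 units at the stronger sites (quartiles 3.86 and 7.15). The interquartile ranges of the groups did not overlap, though their full ranges did, at 1.00 to 10.3 and 1.06 to 55.9 units. There was 1 list per antibody and no replicate, so the difference has no replicate error and no test over samples. The intervals cover counting error only and treat the sites as independent.

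**Figure D1:**
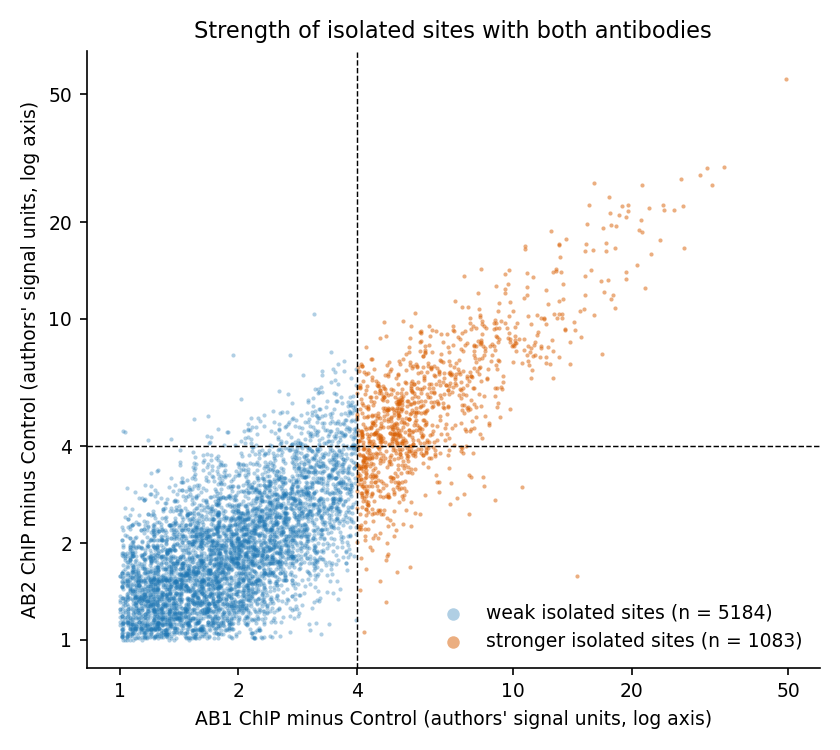
Each point is 1 isolated shared site, with its AB1 ChIP minus control on the x axis and that of its AB2 partner on the y axis (authors' signal units, log axes); dashed lines mark 4 units. The weak sites fill the lower left and few of them lie above the horizontal line (242 of 5184), whereas 780 of the 1083 stronger sites do.

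A unit need not mean the same in both lists. All but 31 AB1 peaks were 244 bp wide and all but 13 AB2 peaks 158 bp wide, and the scaling of the signal is not stated. The control signal at the weak sites had a median of 0.64 units in the AB1 list and 0.43 in the AB2 list. Levels were therefore also placed by rank. When the AB2 limit was set at 3.88 units, the value with the same rank among isolated sites that 4 units has in AB1, 94.6% of the weak and 25.5% of the stronger sites lay below it, against 78.8% of all shared peaks. By the authors' score, 46.3% of the weak sites had a partner at or below the median of the AB2 list, as had 0.739% of the stronger isolated sites and 34.5% of all shared peaks. A partner above the 75th percentile of the AB2 list was found for 17.2% of the weak and 92.2% of the stronger sites, against 35.1% of all shared peaks.

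Within the weak sites, the AB2 signal followed the AB1 signal step by step. In the band of 1 to 1.5 AB1 units, which held 1564 sites, the median AB2 difference was 1.45 units. It was 1.70 in the band of 1.5 to 2 (1340 sites), 2.00 in that of 2 to 2.5 (1001 sites) and 2.42 in that of 2.5 to 3 (601 sites). In the remaining bands of weak sites it was 2.80 (3 to 3.5, 399 sites) and 3.32 (3.5 to 4, 279 sites). The next band outside the limit, 4 to 5 units, had a median of 3.94 among 390 stronger sites. The medians thus rose in every band, while neighbouring bands overlapped widely. The interquartile range ran from 2.64 to 4.29 units just inside the limit and from 3.09 to 4.91 just outside it. The band outside is wider than those inside, so the medians cannot show whether there is a break at 4 units. Over the 5184 weak sites Spearman's rho between the antibodies' differences was 0.582. It is given as a description, since the sites share the 2 ChIP libraries and the lowest values both lists allow.

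**Figure D2:**
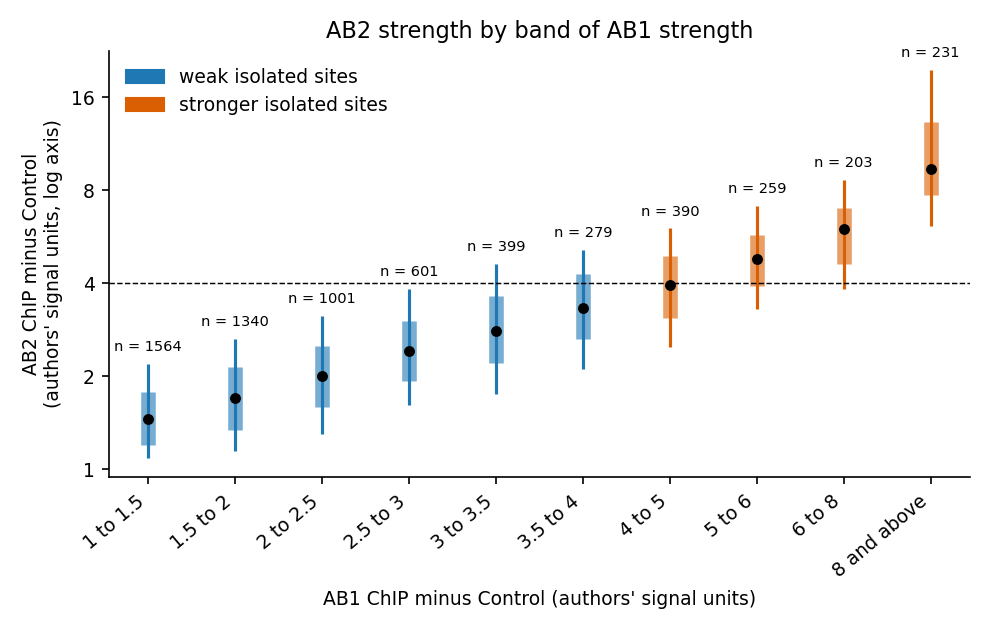
AB2 ChIP minus control (log axis) of isolated sites in bands of AB1 ChIP minus control, with dots at medians, thick bars from the 25th to the 75th and thin lines from the 10th to the 90th percentile; the dashed line marks 4 units. Medians climb from 1.45 in the lowest band to 3.32 in the last band of weak sites and 3.94 in the first band of stronger sites.

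A minority of 242 weak sites (4.67%, interval 4.11 to 5.28) had an AB2 difference of 4 units or more, against 72.0% of the stronger sites and 20.1% of all shared peaks. Most of them were at the upper end of the AB1 range: 153 (63.2%) had an AB1 difference of at least 3 units, against 10.6% of the other weak sites. Their median AB1 difference was 3.21 units, against 1.81 at the other weak sites. Their median AB1 control was 0.70 units, against 0.64. Summits of the antibodies lay a median of 9 bp apart at these 242 sites and 16 bp apart at the other 4942. The share with such a partner was 0.256% in the lowest AB1 band and 30.1% in the highest band of weak sites.

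The weak site with the highest AB2 signal lay on scaffold 29 (813972 to 814215). With AB1 it had a ChIP signal of 4.53 and a control signal of 1.41 units, and with AB2 11.3 and 1.00, which gives differences of 3.12 and 10.3. Its summits were 4 bp apart, and its partner ranked 308 of the 16005 AB2 peaks by score. The next sites were on scaffold 111 (155676 to 155919), with differences of 3.44 units in AB1 and 7.87 in AB2, and scaffold 12 (387152 to 387395), with 2.70 and 7.71. The site on scaffold 2292 (12597 to 12840) had the same AB2 difference of 7.71 but only 1.94 in AB1, and its summits lay 69 bp apart. The last of the 5 was on scaffold 22 (390749 to 390992), with 3.72 units in AB1 and 7.39 in AB2.

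At the other end, 9 weak sites had an AB2 difference of 1.00 unit, the lowest in the list. The first 5 by scaffold number lay on scaffold 4 (726870 to 727113), scaffold 38 (875986 to 876229), scaffold 49 (392661 to 392904), scaffold 64 (170760 to 171003) and scaffold 105 (719799 to 720042). Their AB1 differences were 1.33, 1.04, 1.14, 1.08 and 1.5 units. The last of these lay above the first quartile of the weak sites in AB1, 1.40 units, and the other 4 lay below it. In the AB1 list 11 members stood at 1.00 unit. The first 3 of them lay on scaffold 28 (1038419 to 1038662), scaffold 37 (185942 to 186185) and scaffold 48 (160824 to 161067), and had AB2 differences of 1.37, 1.31 and 1.25 units. A typical weak site, nearest to both medians, lay on scaffold 64 (662210 to 662453). It had a ChIP signal of 2.74 and a control of 0.88 units with AB1, and 2.47 and 0.63 with AB2, with summits 8 bp apart.

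Below 4 units, the median AB1 control was close at the weak isolated sites and at AB1-only peaks, those without an overlapping AB2 peak, at 0.64 and 0.68 units. Within bands of equal AB1 strength it was lower at the weak isolated sites in 5 of 6 bands, while the lowest band, with most of the AB1-only peaks, had the opposite order. The AB1-only peaks were not required to be isolated, and with 1 library the difference was not tested. Of the 11986 AB1 peaks below 4 units, 70.0% were shared, and 3593 were AB1-only. Of all AB1 peaks, 74.4% were shared. The shared portion was 52.2% in the band of 1 to 1.5 units, 68.7% from 1.5 to 2 and 85.7% from 2 to 2.5. It was 94.8% from 2.5 to 3, 96.3% from 3 to 3.5 and 95.7% from 3.5 to 4 units. In the band of 1.5 to 2 units the median AB1 control was 0.64 units at the weak isolated sites and 0.99 at the 962 AB1-only peaks. In the band of 2 to 2.5 it was 0.63 against 1.25 units (270 AB1-only peaks), and in that of 2.5 to 3 it was 0.64 against 1.44 (55 AB1-only peaks). In the lowest band, 1 to 1.5 units, the order was turned round, with 0.65 units at the weak isolated sites and 0.60 at 2257 AB1-only peaks. The control at the weak sites thus kept within 0.63 to 0.65 units over all 6 bands, while that of the AB1-only peaks was higher from 1.5 units upward. The pattern was not particular to weak sites: in the band of 4 to 5 units the median control was 0.64 units at the stronger isolated sites and 3.03 at 30 AB1-only peaks. A high control lowers the fold, and neither list holds a fold under 2.00; its part in this difference was not tested.

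**Figure D3:**
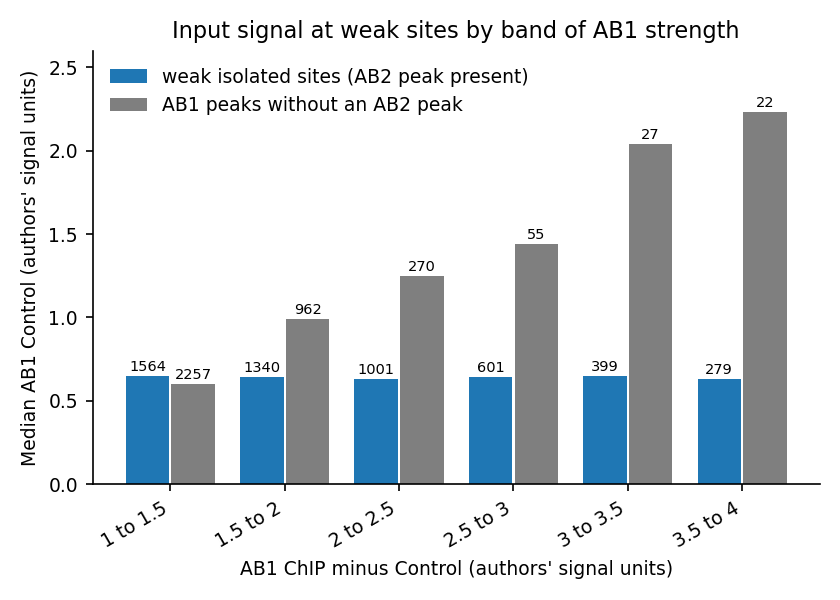
Median AB1 control signal (authors' units) of weak isolated sites and of AB1 peaks without an AB2 peak, by band of AB1 ChIP minus control; numbers above the bars count the peaks. The bars of the weak sites stay between 0.63 and 0.65 units, and those of the AB1-only peaks range from 0.60 in the lowest band to 2.23 in the highest, which holds 22 peaks.

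The weak sites are next described by their control. The fold is the ChIP signal divided by that control, and the AB1 difference was held to under 4 units by the rule, so their values across control levels are given as a description only. Among the weak sites, Spearman's rho was -0.02 between AB1 difference and AB1 control, and 0.908 between the AB1 and AB2 controls. The latter is a description; the lists do not name their control library, and the labels give 1 input sample. The weak sites were divided by AB1 control into 3 parts of near-equal size. In the part with the lowest control (0.08 to 0.53 units, 1764 sites) the median AB1 fold was 6.04 and the median AB2 fold 7.74. In the part with the highest control (0.78 to 2.16 units, 1673 sites) these were 2.88 and 4.02. The AB1 differences of the low and high parts were close, at 1.92 and 1.81 units, and so were the AB2 differences, at 1.79 and 1.95. Summit distances of the low and high parts were 16 and 15 bp. At the extremes, the weak site on scaffold 114 (570662 to 570905) had an AB1 fold of 45.2 and an AB2 fold of 45.4, with a control of 0.09 units in both lists. It was picked for its fold after values were seen.

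Summits of the antibodies coincided closely at the weak sites, though less closely than at the stronger isolated ones. The rule limits this distance, because the peaks had to overlap and the partner was the AB2 peak with the nearest summit. The largest distance was 200 bp at the weak and 198 bp at the stronger sites. The median distance was 15 bp at weak sites (quartiles 7 and 28) and 10 bp at stronger sites (quartiles 5 and 19.5). Summits within 50 bp were found at 4783 weak sites (92.3%, interval 91.5 to 93.0), 96.7% of the stronger sites (interval 95.4 to 97.7) and 92.8% of all shared peaks. The share of the weak sites was thus close to that of all shared peaks. Summits within 10 bp were found at 37.1% of the weak and 50.7% of the stronger sites, against 39.1% of all shared peaks. Summits over 100 bp apart were found at 1.35% and 0.646%, against 1.33% of all shared peaks. The AB2 summit lay at the higher coordinate for 2518 weak sites, at the lower for 2564 and at the same base for 102. The median distance was 17 bp in the lowest AB1 band of the weak sites and 11 bp in their highest band, and the first band of stronger sites also had 11 bp.

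**Figure D4:**
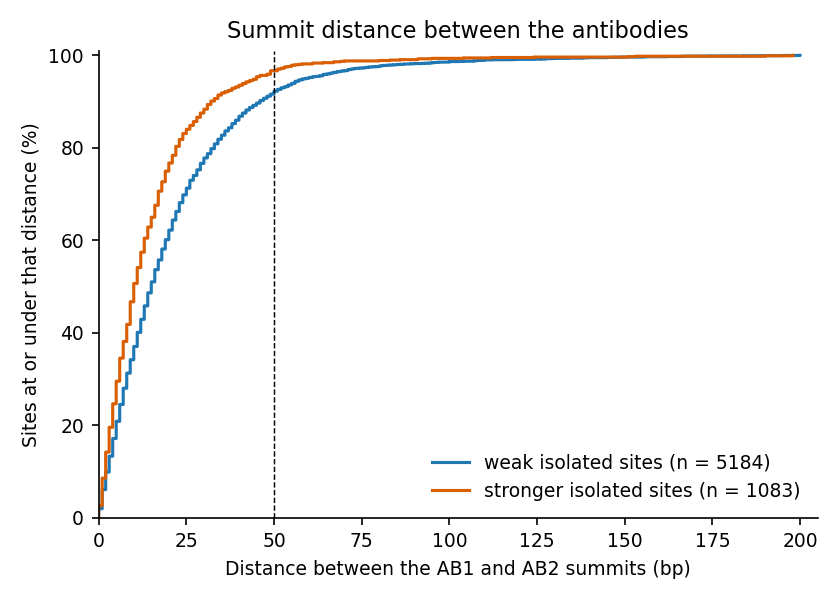
Cumulative share of isolated sites by the distance in bp between the AB1 and AB2 summits; the dashed line marks 50 bp. The curve of the weak sites lies below that of the stronger sites, with 92.3% and 96.7% of sites within 50 bp.

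A single AB2 peak answered to most weak sites. At 239 of them (4.61%) 2 or more AB2 peaks overlapped the AB1 peak, against 5.82% of the stronger isolated sites and 7.24% of all shared peaks. No AB2 partner could belong to more than 1 weak site, because the rule sets weak summits over 1000 bp apart and the peaks are far narrower. When the same rule was led by the AB2 list, which was added after seeing the data, it selected 4990 AB2 peaks, of which 4684 were partners of weak sites. That was 93.9% of the AB2-led sites and 90.4% of the weak sites. Both rules ask for the same overlap and a like isolation, so part of this agreement was fixed in advance. The AB2 limit of 4 units was met by 95.3% of the weak sites and by 79.9% of all shared AB1 peaks. The AB2-led rule left out 500 weak sites. Of these, 242 had an AB2 difference of 4 units or more and 273 had another shared AB2 summit within 1000 bp, with 15 counted under both reasons.

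Isolation was measured against shared summits only, and peaks of a single antibody could still lie close by. An unshared peak of either antibody had its summit within 1000 bp of 1002 weak sites (19.3%, interval 18.3 to 20.4), against 24.5% of the stronger isolated sites (interval 21.9 to 27.1) and 24.1% of all shared peaks. An AB2-only summit was this close at 13.0% of the weak and 17.2% of the stronger sites, with 17.7% of all shared peaks. An AB1-only summit was this close at 7.33% of the weak and 8.86% of the stronger sites, with 7.83% of all shared peaks. Apart from their partner, 3993 of the 5184 weak sites had no peak of either list within 1000 bp. This count was not made for the stronger isolated sites or all shared peaks, and closely spaced peaks have such a neighbour by definition.

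Beyond the 1000 bp that define isolation, the distance to the nearest other shared site varied widely. The nearest shared summit lay 1 to 2 kb away at 983 weak sites (19.0%, interval 17.9 to 20.1) and at 25.3% of the stronger isolated sites (interval 22.7 to 28.0). It lay 2 to 5 kb away at 16.2% and 20.3%, and 5 to 10 kb away at 15.4% and 12.8%. Distances of 10 to 50 kb were found at 35.4% of the weak and 28.5% of the stronger sites, and distances over 50 kb at 6.81% and 5.26%. No other shared summit lay on the scaffold of 377 weak sites (7.27%) and 84 stronger sites (7.76%). Among the 1825 weak sites with a shared neighbour within 5 kb, the nearest was itself a weak isolated site at 1123 (61.5%), a stronger isolated site at 242 (13.3%) and a closely spaced peak at 460 (25.2%). Among the 494 stronger isolated sites with such a neighbour, these shares were 48.0% weak isolated, 26.1% stronger isolated and 25.9% closely spaced. Of all shared peaks, 48.9% were weak isolated sites, and of the isolated shared peaks 82.7% were. Closely spaced peaks that lie between others of their group cannot be nearest to an isolated site, so 48.9% is not a like reference. The isolated neighbours of weak sites were 1123 weak and 242 stronger sites, beside 5184 and 1083 among all isolated shared peaks. Whether weak sites lie near one another more often was not tested.

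**Figure D5:**
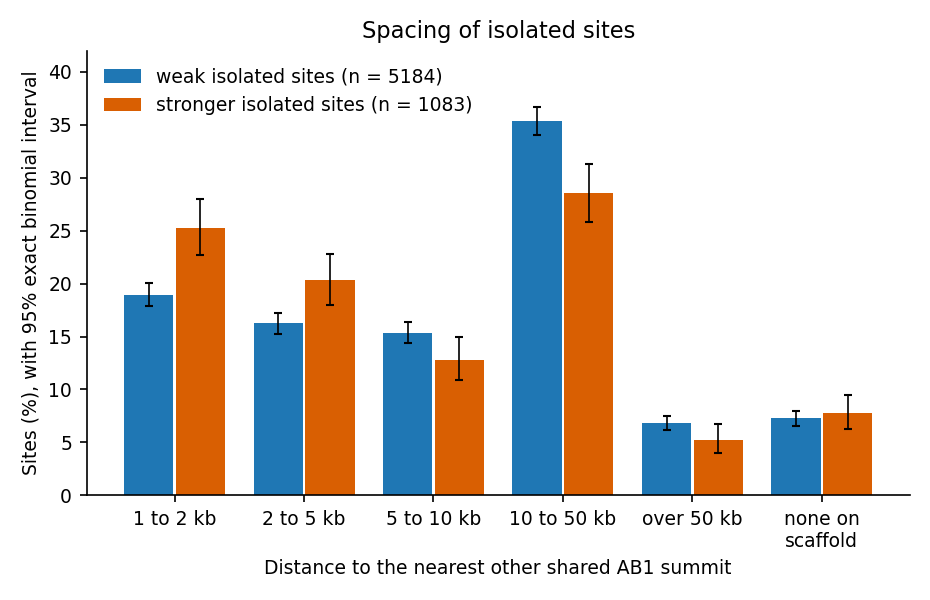
Share of weak and stronger isolated sites (bars, with exact binomial 95% intervals for counting error) by distance to the nearest other shared AB1 summit. The weak sites had the lower shares at 1 to 2 kb (19.0% against 25.3%) and the higher share at 10 to 50 kb (35.4% against 28.5%).

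The most remote weak sites with another peak on their scaffold lay on scaffold 95 (752780 to 753023), 191079 bp from the nearest other peak of either list, scaffold 94 (721530 to 721773), 171768 bp away, and scaffold 36 (49623 to 49866), 160559 bp away. The first had AB1 and AB2 differences of 2.87 and 1.72 units, with folds of 12.0 and 13.0 over a control of 0.26 and 0.14 units. The second was close to the lowest values of the lists, with 1.34 and 1.12 units, and its summits lay 167 bp apart. The third had 2.03 and 1.97 units, with summits 10 bp apart.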

How the data were processed

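ChIP-seq peaks were analysed as 1 list per antibody, deposited by the authors without replicates. Per the file headers, the columns are ChIP and control signal, score, tag distribution score, fold enrichment (a ratio) and FDR, which was not used since its scale is not stated. BWA is named in the submitters' processing notes; the build nemVec1 is named with the lists. The peak caller and signal scaling were not given in the sources used here, and read depth is unknown. The deposited score equalled ChIP minus control times the tag distribution score within 0.0294. Starts were taken as 0-based and are given 1-based. Python 3.11.15, numpy 2.4.6, pandas 2.3.3 and scipy 1.17.1 were used.

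The partner of an AB1 peak was the overlapping AB2 peak with the nearest summit. Shares carry exact (Clopper-Pearson) 95% intervals for counting error only. No test was run, since peaks of 1 library are not replicates. The code of the classification was run on simulated peaks of known class. These held no summit spacing close to 1000 bp and no AB1 peak with several AB2 peaks, so such cases were not tested. Named sites were those nearest the limit of 4 units on either side, lowest in AB1, highest and lowest in AB2, nearest both medians and most remote, plus the scaffolds with the most sites; ties went to the lower scaffold number. Members, lists and measures were chosen with earlier results of these data known.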

Additional observations from a re-analysis of the deposited data

How the results depend on the processing

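Each of 6 values was recomputed under alternatives that changed a single choice, 59 in all, and 40 of them stayed within 1.5 times the count or within the 95% interval of the share or median. A limit of 3 units gave 98.02% with an AB2 difference below 4 and a median AB2 difference of 1.73; a limit of 5 gave 92.25% and 1.91. Keeping the top 75% of each list by score gave 93.25% and 2.15, with 94.1% of summits within 50 bp and 15.26% with an unshared peak within 1000 bp. Choosing weak sites by an AB1 fold below the median of the 6267 isolated shared sites left 3123, a count that the use of a median fixes. Of these, 96.45% had an AB2 difference below 4 units, with a median of 1.68. Summits lay within 50 bp at 91.23%, and 20.59% had an unshared neighbour. An overlap of at least 50% of the AB1 peak gave 94.56% within 50 bp, and the AB2 partner with the highest score 91.28%. The share with an unshared neighbour was 21.21% at an isolation distance of 500 bp, 17.81% at 2000 bp, and 12.95% when any other AB1 summit broke isolation, since such sites can have no AB1-only neighbour within 1000 bp. The rank-matched AB2 limit, added after seeing the data, gave 94.64%. The median summit distance was 14 to 16 bp under every alternative run. The rule led by AB2, also added later, was not applied to the AB2 differences, which it selects on. No paired analysis was possible because each antibody has 1 list and no result comes from a test. With no replicates and unknown read depth, no error can be given for the signal of a single site.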

Other observations

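The weak sites were spread over 898 of the 1426 scaffolds with an AB1 peak. A single weak site lay on 413 of these, and 158 scaffolds with at least 10 held 3405 of the 5184 sites. Scaffold 2 held the most, 73 of its 188 shared peaks (38.8%), followed by scaffold 4 with 66 of 175 (37.7%) and scaffold 1 with 64 of 163 (39.3%); scaffold 5 also held 64, of 113 (56.6%). Over the 104 scaffolds with at least 30 shared peaks, the share of weak isolated sites had a median of 45.6%, with quartiles of 38.8% and 53.3%. It was lowest on scaffold 75, at 11 of 46 (23.9%), and highest on scaffold 25, at 29 of 39 (74.4%). Scaffold lengths were not used here, so these counts are not densities.

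The weak sites with the highest AB1 control, chosen after their values were seen, differed in the AB2 list. The site on scaffold 42 (656798 to 657041) had a control of 2.16 units with AB1 and 2.13 with AB2, and ChIP signals of 4.84 and 7.96. Its tag distribution scores were 0.42 and 0.50. With AB1 the score was below 1 at 35 weak sites (0.675%), against 0.277% of the stronger isolated sites and 0.405% of all shared peaks. With AB2 it was below 1 at 34 weak sites (0.656%), against 0.185% and 0.424%. The site on scaffold 233 (154544 to 154787) had controls of 2.14 and 0.76 units and ChIP signals of 4.44 and 1.77, with summits 128 bp apart.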
